A study of Mus musculus with 18 samples.

Results

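Chemoattractant receptors that hold myeloid cells in the bone marrow or draw them out of it were followed by symbol: the chemokine receptors Ccr2, Cx3cr1, Cxcr2, Cxcr4 and Ccr1, the complement receptor C5ar1, and the formyl peptide receptors Fpr1 and Fpr2. Of these 8 genes, 6 had a probe set annotated to 1 symbol, each gene with 1 such probe set, and all 6 passed the filter on dim genes, among 13387 genes tested of 19938 with such a probe set. Fpr1 and Fpr2 were not analysed here. The 18 arrays measured total RNA of cells sorted from the marrow of C57BL/6 mice, 9 arrays of monocytes with high surface Ly-6C and 9 of neutrophils.

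For each cell type, 4 arrays came from Zeb2(fl/fl);Mx1-Cre(tg) mice given poly(I:C), labelled Zeb2-deficient, 4 from Zeb2(fl/fl) mice given poly(I:C), called poly(I:C) controls here, and 1 from an untreated Zeb2(fl/fl) mouse. Zeb2 encodes a zinc-finger repressor, and poly(I:C) imitates viral double-stranded RNA and raises interferon, which switches on the Mx1 promoter in marrow cells and in other tissues. Each of 2 injections held 150 µg poly(I:C), both fell inside 48 h, and the marrow was harvested 3 weeks afterwards. All groups carried the floxed alleles and no control carried Cre, so Cre and the loss of Zeb2 cannot be told apart. The labels give neither the age of the mice nor whether each array stands for its own mouse, so a p-value covers only the scatter among these samples, which could be technical. In these bulk samples, fewer cells of a type and less RNA per cell cannot be told apart.

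All 6 receptors couple mainly to inhibitory G proteins and steer migration along gradients of their ligands. Cxcr4 binds Cxcl12 from marrow stroma and retains monocytes and neutrophils. Cxcr2 binds chemokines such as Cxcl1 and Cxcl2 and favours the release of neutrophils, whereas Ccr2 binds Ccl2 and Ccl7 and is needed for Ly-6C(hi) monocytes to leave the marrow. Cx3cr1 is the receptor of the membrane-anchored chemokine Cx3cl1 on monocytes, Ccr1 binds inflammatory chemokines such as Ccl3 and Ccl5, and C5ar1 binds the complement fragment C5a.

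The 250 bases before the RefSeq start (build GRCm38.p6, gene strand, 5′ to 3′) are shown for 3 receptors that were called between genotypes in monocytes, the pair with the largest increases and the one that was lower. Capitals mark matches to the E2-box CACCTG, the hexamer that Zeb proteins bind, or to GAGGAA, a core bound by the myeloid factor PU.1, searched on both strands. The Cxcr2 window is chr1:74153744-74153993 on the plus strand, the C5ar1 window chr7:16259339-16259588 on the minus strand, and the Cx3cr1 window chr9:120068297-120068546 on the minus strand.
Cxcr2: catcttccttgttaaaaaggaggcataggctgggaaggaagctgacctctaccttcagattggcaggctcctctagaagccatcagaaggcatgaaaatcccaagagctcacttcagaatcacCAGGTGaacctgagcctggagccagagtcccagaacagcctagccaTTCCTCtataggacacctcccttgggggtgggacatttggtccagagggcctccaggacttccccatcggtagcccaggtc
C5ar1: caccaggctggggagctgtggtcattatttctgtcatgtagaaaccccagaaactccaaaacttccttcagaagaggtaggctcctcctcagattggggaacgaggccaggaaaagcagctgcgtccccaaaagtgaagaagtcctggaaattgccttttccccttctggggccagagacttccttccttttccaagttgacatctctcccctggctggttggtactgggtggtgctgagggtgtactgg
Cx3cr1: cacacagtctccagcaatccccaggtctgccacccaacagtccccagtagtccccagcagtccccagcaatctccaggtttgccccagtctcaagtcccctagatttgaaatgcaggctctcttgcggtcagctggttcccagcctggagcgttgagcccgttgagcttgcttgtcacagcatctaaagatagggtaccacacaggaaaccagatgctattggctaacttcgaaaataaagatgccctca
The Cxcr2 window held 1 E2-box, read as CAGGTG and beginning 127 bases before the start, and 1 PU.1 core, read as TTCCTC and beginning 81 bases before it. The motifs do not overlap each other there. The C5ar1 and Cx3cr1 windows held neither motif. Of the other members, Ccr1 (chr9:123968693-123968942, minus strand) held 1 GAGGAA, beginning 129 bases before the start, and Cxcr4 (chr1:128592300-128592549, minus strand) and Ccr2 (chr9:124101933-124102182, plus strand) held neither. The C/EBP pattern TTGCNNAA, where N is any base, was in none of the 6 windows. Among 32851 windows of the same length, 17.2% held CACCTG, 23.3% GAGGAA and 9.56% TTGCNNAA, so 1 window of 6 with an E2-box is near the share over all windows. These matches describe letters in a window and nothing about binding.

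The deposited values are log2 intensities per probe set between 1.05 and 13.5, and the medians of the arrays were 4.81 to 4.92. Precision is limited by how few arrays a group has. The 40th percentile of an array, the level used here as a floor for dim probe sets, was 4.28 to 4.37 in monocytes and 4.40 to 4.50 in neutrophils. The Zeb2 probe set read 9.75, 9.84, 9.46 and 8.74 in labelled Zeb2-deficient monocytes and 10.08, 9.88, 9.88 and 9.86 in their poly(I:C) controls, a difference of -0.48 ± 0.24 (SE, limma adjusted p = 0.272). In neutrophils it read 7.72, 7.10, 7.85 and 8.25 in the labelled Zeb2-deficient samples and 7.19, 6.86, 7.54 and 7.40 in the controls. The neutrophil estimate of 0.49 ± 0.24 (SE, limma adjusted p = 0.972) ran against the label, but it did not pass and the groups overlapped. The deleted part of the gene is not given in the labels, so this level does not check the deletion, and every direction below is for samples as labelled. The summed level of 7 Ly-6C(hi) monocyte markers was 12.2 to 13.4 (log2) in labelled Zeb2-deficient monocytes and 13.3 to 13.6 in control monocytes, against 8.13 to 8.54 over the neutrophils of both genotypes. Arrays also deviated together by the run of accession numbers they belong to, called array sets A and B here, a split that the labels do not name and that holds 2 arrays of every group of 4.

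In poly(I:C) controls the receptors divided the cell types into those higher in monocytes, Ccr2 and Cx3cr1, and those higher in neutrophils, Cxcr2, C5ar1, Ccr1 and Cxcr4. Ccr2 (probe set 10590631) read 11.28, 11.20, 11.07 and 11.14 in control monocytes against 3.78, 3.66, 3.98 and 4.46 in control neutrophils, a difference of 7.20 ± 0.24 (SE). Only 2 of the 9 neutrophil arrays exceeded the 40th percentile for Ccr2, so its neutrophil level is a value near the floor and the 147-fold ratio is not a measured ratio of transcripts. Cx3cr1 (10597743) read 9.54, 9.62, 9.58 and 9.67 in control monocytes against 5.05, 6.08, 4.94 and 5.33 in control neutrophils, 19.1-fold higher in monocytes. The SD over 4 arrays of this gene was 0.05 in control monocytes and 0.51 in control neutrophils, so monocytes were the more even group.

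Cxcr2 (10347291) was the receptor with the widest gap in the other direction, at 3.88, 4.40, 5.49 and 5.36 in control monocytes against 11.96, 12.00, 12.08 and 12.14 in control neutrophils. The difference was -7.26 ± 0.32 (SE), and the lowest control monocyte array lay below the 40th percentile. C5ar1 (10560242) read 6.11, 6.59, 6.38 and 7.23 in control monocytes against 10.80, 10.93, 10.45 and 10.51 in control neutrophils, a difference of -4.10 ± 0.23 (SE). Ccr1 (10598004) differed by -3.23, at 6.16 ± 0.45 in control monocytes and 9.39 ± 0.09 in control neutrophils (SD, n = 4 each). Cxcr4 (10357472), the retention receptor, was bright in both cell types and differed least, by -1.09, at 9.97 ± 0.05 in control monocytes and 11.05 ± 0.07 in control neutrophils (SD, n = 4 each).

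All 6 receptors passed the limma test between control monocytes and control neutrophils, where 58.6% of all genes did, 29.9% higher and 28.7% lower in monocytes. The arrays overlapped for none of the 6, as for 56.2% of all genes. Adjusted p was at most 5.89e-09, for Cxcr4. The members' median absolute difference was 4.18, against 0.40 over all genes tested. In labelled Zeb2-deficient cells all 6 again passed in the same directions without overlap. Of all genes 62.1% passed there, 30.0% higher and 32.1% lower in monocytes, and 50.7% did not overlap. The median absolute difference was then 2.69, against 0.42 over all genes. Ccr2 differed by 6.29 and Cx3cr1 by 2.84 between labelled Zeb2-deficient monocytes and neutrophils, and Cxcr2 by -3.57, Ccr1 by -2.55, C5ar1 by -2.52 and Cxcr4 by -0.79.

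**Figure D1:**
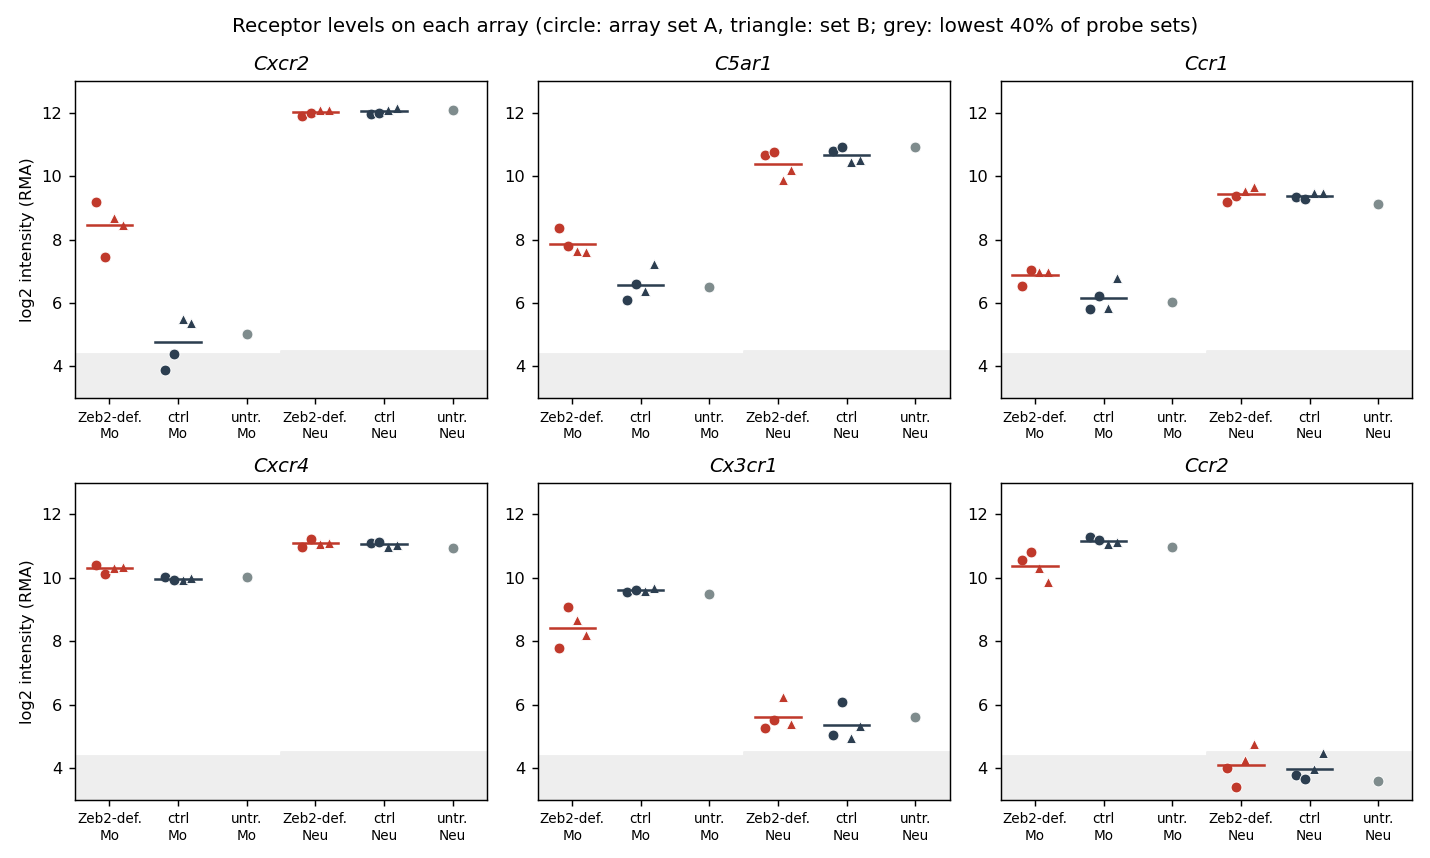
Level of each receptor on every array, in log2 intensity, by cell type (Mo, monocytes; Neu, neutrophils) and group (Zeb2-def., labelled Zeb2-deficient; ctrl, poly(I:C) control; untr., untreated control), with bars at the group means, circles for array set A and triangles for array set B. Cxcr2 lies between 7.46 and 9.19 in labelled Zeb2-deficient monocytes and between 3.88 and 5.49 in their controls, while both groups of neutrophils lie between 11.91 and 12.14; the grey band is the lowest 40% of probe sets.

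Between genotypes, monocytes labelled Zeb2-deficient carried more Cxcr2, C5ar1, Ccr1 and Cxcr4 RNA and less Cx3cr1 than their poly(I:C) controls, so 4 receptors were higher and 1 lower of 6 tested. Ccr2 was lower by a value that missed the threshold. Over all genes, 7.54% passed the same test, 5.11% higher and 2.44% lower. That split was unstable: with 1 array left out, 446 to 1050 genes were higher and 132 to 951 lower, the highest of both without labelled Zeb2-deficient replicate 2, against 684 and 326 with all arrays, and in array set A alone 192 were higher and 23 lower. The arrays of the groups did not overlap for 5 receptors, all but Ccr1, as for 10.0% of all genes. The members' median change was 0.53 and their median absolute change 0.98, against -0.034 and 0.14 over all genes tested.

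Cxcr2, the neutrophil release receptor, rose most. It read 9.19, 7.46, 8.66 and 8.46 in labelled Zeb2-deficient monocytes, against 3.88, 4.40, 5.49 and 5.36 in the controls and 5.01 in the untreated sample. Every labelled Zeb2-deficient array stood above every control, and the lowest of them was replicate 2. The change was 3.66 ± 0.32 (SE, 95% interval 2.99 to 4.33) with limma adjusted p = 1.24e-06. This SE shares the spread of the more even neutrophils, and the SD in monocytes was 0.72 in labelled Zeb2-deficient and 0.77 in control arrays. With only the arrays compared the limma adjusted p was 0.00135. Only 3 of the 4 control arrays exceeded the 40th percentile, and replicate 2 just did, so the 12.7-fold ratio is taken against a level near the floor and is not a measured ratio of transcripts. It was 4.19 within array set A and 3.14 within set B. The raised level stayed far under that of neutrophils: on the intensity scale it was 8.40% of the level in labelled Zeb2-deficient neutrophils.

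C5ar1, the C5a receptor, read 8.36, 7.81, 7.64 and 7.62 in labelled Zeb2-deficient monocytes, against 6.11, 6.59, 6.38 and 7.23 in the controls and 6.49 in the untreated sample. The groups did not overlap, with control replicate 5 the nearest to the labelled Zeb2-deficient arrays. It rose by 1.28 ± 0.23 (SE, 95% interval 0.79 to 1.77), or 2.43-fold (adjusted p = 0.00179), by 1.74 within set A and 0.83 within set B. Ccr1 read 6.53, 7.04, 6.99 and 6.98 in labelled Zeb2-deficient monocytes, against 5.82, 6.22, 5.83 and 6.77 in the controls and 6.04 in the untreated sample. Here the groups overlapped, since control replicate 5 lay above the lowest labelled Zeb2-deficient array. Ccr1 rose by 0.73 ± 0.18 (SE, 1.65-fold, adjusted p = 0.0188), a call lost within set A alone (0.77, adjusted p = 0.0862) and within set B alone (0.68, adjusted p = 0.0857). It was also lost on leaving out control replicate 1 (0.0709) or 4 (0.0707), or labelled Zeb2-deficient replicate 3 (0.0622) or 4 (0.0540), each value an adjusted p.

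Cxcr4, the retention receptor, showed the smallest change that passed. It read 10.42, 10.11, 10.32 and 10.34 in labelled Zeb2-deficient monocytes, against 10.03, 9.93, 9.93 and 9.99 in the controls and 10.04 in the untreated sample. All labelled Zeb2-deficient arrays stood above all controls, by a narrow margin for replicate 2. The rise was 0.33 ± 0.086 (SE, 95% interval 0.15 to 0.51), or 1.26-fold, with limma adjusted p = 0.0241. The limma adjusted p was 0.0803 with replicate numbers blocked, a fit that left out labelled Zeb2-deficient replicate 3 and control replicate 5. The call was also lost within set A (0.28, adjusted p = 0.421), but not within set B (0.38, adjusted p = 0.0225). Leaving out 1 array kept it without control replicate 1 and without labelled Zeb2-deficient replicate 2, and lost it without any of the other 6 arrays, at adjusted p of 0.0528 to 0.0733.

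The receptors of monocytes moved the other way. Cx3cr1 read 7.78, 9.08, 8.68 and 8.19 in labelled Zeb2-deficient monocytes, against 9.54, 9.62, 9.58 and 9.67 in the controls and 9.48 in the untreated sample. The controls were close together, while the labelled Zeb2-deficient arrays spread over more than 1 log2 unit below them. Cx3cr1 fell by 1.17 ± 0.27 (SE, 95% interval -1.74 to -0.60), or 2.25-fold, with limma adjusted p = 0.0110, at -1.15 within set A (adjusted p = 0.258) and -1.19 within set B (0.0110). Ccr2, the exit receptor of monocytes, read 10.56, 10.80, 10.31 and 9.88 in labelled Zeb2-deficient monocytes, against 11.28, 11.20, 11.07 and 11.14 in the controls and 10.98 in the untreated sample. Again no labelled Zeb2-deficient array reached the controls, and replicate 2 was nearest to them. The difference of -0.78 ± 0.24 (SE, 95% interval -1.29 to -0.28) missed the threshold with adjusted p = 0.0557. It was -0.56 within set A and -1.01 within set B, and it passed in set B alone (adjusted p = 0.0106), with sets blocked (0.0384) and without labelled Zeb2-deficient replicate 2 (-0.92, adjusted p = 0.0169).

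The single untreated monocyte array lay inside the range of the 4 poly(I:C) controls for Cxcr2, C5ar1 and Ccr1, and just outside it for Cxcr4, Cx3cr1 and Ccr2. It has no replicate, and no test was made of treatment.

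Markers of granulocytes moved together with these receptors in monocytes. Of 10 neutrophil markers, 9 rose, where 5.11% of all genes rose and 2.44% fell. The summed level of the 10 was 14.5 to 15.0 (log2) in labelled Zeb2-deficient monocytes, 12.3 to 14.0 in control monocytes and 15.6 to 15.7 in neutrophils of both genotypes. Ly6g, the surface marker of neutrophils, averaged 9.08 in labelled Zeb2-deficient monocytes and 3.90 in control monocytes, and the gelatinase Mmp9 6.76 and 4.36. Both control means lay at or below the 40th percentile, so the differences of 5.18 and 2.39, which passed, are against the floor and have no measured ratio. In labelled Zeb2-deficient monocytes Ly6g stood at 16.0% and Mmp9 at 3.08% of the level in neutrophils of that genotype. In the same terms the granule protein Ltf stood at 48.5% in labelled Zeb2-deficient monocytes against 2.15% in controls, and Camp, a precursor of an antimicrobial peptide, at 86.7% against 12.0%. Among the receptors the share was 17.4% against 5.83% for C5ar1, 17.1% against 10.7% for Ccr1 and 57.7% against 47.1% for Cxcr4. Csf3r, the receptor of the neutrophil growth factor G-CSF, was level, with a difference of -0.0043 between genotypes and a share of 18.1% against 18.8%. The shares thus differed from gene to gene.

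All 6 markers of promyelocytes and primary granules also rose. The counts of this paragraph stand against 5.11% of all genes that rose and 2.44% that fell. The summed level of the 6 was 11.8 to 13.7 in labelled Zeb2-deficient monocytes, 9.18 to 11.8 in control monocytes and 7.85 to 9.21 over treated neutrophils of both genotypes. Of 7 monocyte markers with a probe set, 2 fell, Csf1r by 0.87 and Ms4a6c by 0.62, and the other 5 differed by -0.83 to -0.19. An unadjusted limma p under 0.05 was found for 6 of the 7, where 20.2% of all genes had one. No marker of B cells (2 tested), T and NK cells (2), erythroid cells (1), mast cells and basophils (2) or megakaryocytes and platelets (4) was called in either direction by limma, and 1 of these, of mast cells and basophils, had an unadjusted p under 0.05, as had 20.2% of all genes. Among stem and progenitor markers 2 of 5 rose and 1 fell, 1 of 2 eosinophil and 1 of 4 macrophage markers rose, 1 of 4 of conventional dendritic cells and 1 of 4 of Ly-6C(low) monocytes fell, and of 3 plasmacytoid dendritic cell markers 1 rose, Ccr9, and 1 fell. The part of other cells in the changes of the receptors was not tested.

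In neutrophils no receptor passed the genotype test, where 0.120% of all genes, 16 of 13387, did. None had an unadjusted p under 0.05 either, which 5.10% of all genes had. Cxcr2 read 11.91, 11.99, 12.09 and 12.09 in labelled Zeb2-deficient neutrophils, against 11.96, 12.00, 12.08 and 12.14 in the controls and 12.07 in the untreated sample. The groups overlapped almost wholly, and the difference was -0.026 with a 95% interval of -0.70 to 0.64. That width also reflects scatter in monocytes, since limma shared a gene's spread over all groups. The SD of Cxcr2 was 0.085 in labelled Zeb2-deficient and 0.081 in control neutrophils, against 0.72 and 0.77 in monocytes. Cxcr4 read 10.99, 11.22, 11.07 and 11.09 in labelled Zeb2-deficient neutrophils, against 11.09, 11.13, 10.96 and 11.03 in the controls and 10.94 in the untreated sample. Its difference was 0.037, with the narrowest interval of the 6, -0.14 to 0.22.

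C5ar1 averaged 10.38 ± 0.40 in labelled Zeb2-deficient neutrophils and 10.68 ± 0.23 in the controls (SD, n = 4 each), a difference of -0.29 with an interval of -0.78 to 0.19. Ccr1 averaged 9.43 ± 0.20 in labelled Zeb2-deficient neutrophils and 9.39 ± 0.09 in the controls (SD, n = 4 each), a difference of 0.043 (-0.34 to 0.43). The array sets stood apart within each genotype for 4 of the 6 receptors in neutrophils: both set B arrays lay below both set A arrays for C5ar1, and above them for Cxcr2, Ccr1 and Ccr2. For the dim receptors, Cx3cr1 differed by 0.24 (-0.32 to 0.81) and Ccr2 by 0.13 (-0.37 to 0.64), and Ccr2 was near the floor in both groups. All 6 adjusted p-values were 0.999. A p that misses the threshold does not show that the groups are alike, and the widest bound among these intervals was 0.81, for Cx3cr1.

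**Figure D2:**
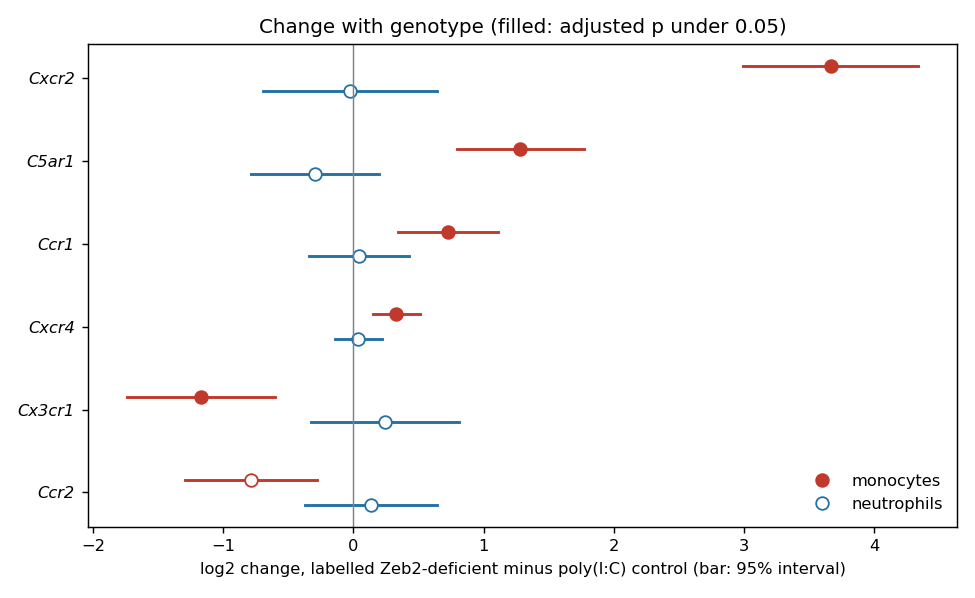
Change of each receptor between genotypes (labelled Zeb2-deficient minus control), in log2 units, with 95% intervals from limma, in monocytes (red, upper of each pair) and neutrophils (blue). Filled points passed at adjusted p under 0.05; Cxcr2 changed by 3.66 in monocytes and -0.026 in neutrophils, and the interval of every neutrophil change includes 0.

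The change in monocytes exceeded that in neutrophils by a tested difference for 2 of the 6 receptors, where 2.68% of all genes passed that test, 2.17% with a positive difference. For Cxcr2 the monocyte change minus the neutrophil change was 3.69 ± 0.45 (SE, adjusted p = 1.80e-04), and for C5ar1 it was 1.58 ± 0.33 (SE, adjusted p = 0.0118). The other 4 did not pass: Cx3cr1 at -1.41 (adjusted p = 0.0560), Ccr2 at -0.92 (0.207), Ccr1 at 0.68 (0.215) and Cxcr4 at 0.29 (0.278). Of these, Ccr1 passed with the replicate number as a block (0.87, adjusted p = 0.0477), and without control monocyte replicate 5 (0.89, adjusted p = 0.0318). The block fit also lacks that array, so these are not separate cases. Cx3cr1 passed with array sets blocked (adjusted p = 0.0436), within set B (-1.86, 0.0122), without labelled Zeb2-deficient monocyte replicate 2 (-1.63, 0.00776) and without control neutrophil replicate 2 (-1.66, 0.0183). With the replicate number as a block, which leaves out arrays whose number is not in both genotypes, 224 genes passed this test. In the main fit 359 did.

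The balance of receptors on one array was followed as a difference of 2 probe sets. Its absolute value has no meaning between probes, and only its change between genotypes is read. Cxcr2 minus Cxcr4 averaged -1.85 ± 0.60 in labelled Zeb2-deficient monocytes and -5.19 ± 0.80 in control monocytes (SD, n = 4 each), with the untreated sample at -5.03. The labelled Zeb2-deficient arrays ran from -2.65 to -1.22 and the control arrays from -6.15 to -4.44, so they did not overlap. Release and retention receptors thus changed unequally in monocytes, by 3.33 (two-sided exact permutation test, p = 0.0286, the smallest that 70 splits allow). The gap in Cxcr2 between the groups, from 5.49 to 7.46, was wider than the whole range of Cxcr4, 9.93 to 10.42. This p was therefore fixed by the Cxcr2 values and is no separate support. Control Cxcr2 values near the floor also limit the size of the change. In neutrophils the same difference averaged 0.93 ± 0.11 in labelled Zeb2-deficient samples and 0.99 ± 0.14 in the controls (SD, n = 4 each), a change of -0.063 (exact permutation p = 0.514), with the untreated sample at 1.13.

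Ccr2 minus Cxcr4 averaged 0.091 ± 0.48 in labelled Zeb2-deficient monocytes and 1.20 ± 0.066 in control monocytes (SD, n = 4 each), with the untreated sample at 0.94. The labelled Zeb2-deficient arrays ran from -0.47 to 0.69 and the control arrays from 1.14 to 1.27. This change of -1.11 again reached the smallest p possible (exact permutation test, p = 0.0286), and with any 1 control array left out the exact p was 0.0571. Every labelled Zeb2-deficient array lay below all controls for Ccr2 and above them for Cxcr4. The difference therefore had to separate the groups, and its p adds no support to either change. Adjusted over the 3 comparisons of this kind by Benjamini-Hochberg, the exact permutation p was 0.0429 for each of the monocyte differences and 0.514 for the neutrophil one.

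**Figure D3:**
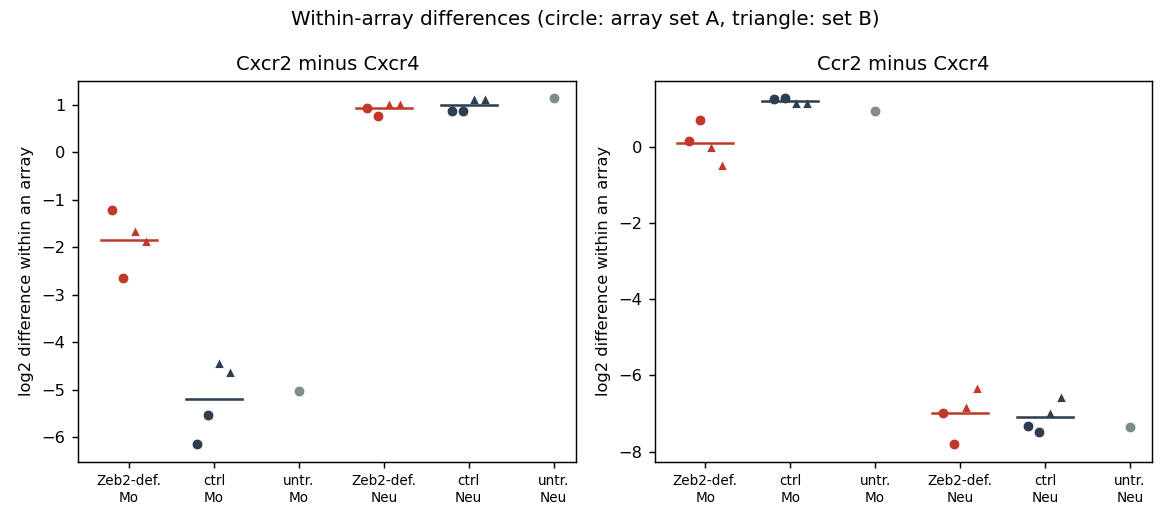
Difference between 2 receptors' probe sets within an array, in log2 units, by group, with bars at the group means, circles for array set A and triangles for set B. Cxcr2 minus Cxcr4 lies between -2.65 and -1.22 in labelled Zeb2-deficient monocytes and between -6.15 and -4.44 in control monocytes, and Ccr2 minus Cxcr4 between -0.47 and 0.69 in the first and between 1.14 and 1.27 in the second; the position of 0 carries no meaning.

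Of 8 other chemokine receptors tested, 1 was called between genotypes in monocytes, where 7.54% of all genes were: Ccr9, a homing receptor of the gut and thymus, was higher by 1.08 ± 0.22 (SE, limma adjusted p = 0.00465). Its control mean of 3.88 lay below the 40th percentile, against 4.96 in labelled Zeb2-deficient monocytes, and the call was lost within set A (adjusted p = 0.0756). The list's median change was -0.092. Cxcr1, the closest relative of Cxcr2, averaged 3.94 in control and 3.83 in labelled Zeb2-deficient monocytes, both below the 40th percentile. Its difference of -0.11 between genotypes (limma adjusted p = 0.804) is between values at the floor and cannot show whether Cxcr1 changed. Control monocytes minus control neutrophils were at -1.91 for it. Of the chemokine receptor genes tested, Ackr4, Ccrl2, Cx3cr1, Ccr9, Cxcr6, Ccr1 and Ccr2 lie in this order on chromosome 9 in the reference table. Ccr9 and Ccr1 were higher by 1.08 and 0.73, and Ackr4 differed by 0.069 (limma adjusted p = 0.858). Cx3cr1 was lower by 1.17, and Ccrl2, Cxcr6 and Ccr2 differed by -0.39 (adjusted p = 0.355), -0.52 (0.107) and -0.78. The estimates of these genes thus had both signs.

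Of 16 other chemoattractant receptors, 1 rose and 2 fell in monocytes, against 5.11% and 2.44% of all genes. Ltb4r1, which binds the neutrophil attractant leukotriene B4, rose by 0.67 (adjusted p = 0.0415). Ptafr, the receptor of platelet-activating factor, fell by 0.68 (0.0464) and Ptger4, a prostaglandin E2 receptor, by 0.54 (0.0497). These 3 calls were near the threshold, and those of Ptafr and Ptger4 were lost with the replicate number as a block (adjusted p = 0.0809 and 0.105). Leaving out 1 array lost the call of Ltb4r1 in 5 of 8 cases (adjusted p up to 0.154), of Ptafr in 7 (up to 0.169) and of Ptger4 in 6 (up to 0.179). C5ar2, the second receptor of C5a, differed by 0.45 (adjusted p = 0.154). In control monocytes minus control neutrophils, 6 of the 16 were higher and 8 lower, where 29.9% and 28.7% of all genes were, led by the nucleotide receptor P2ry6 (3.08) and the oxysterol receptor Gpr183 (2.40), and by C5ar2 (-1.88) and the sphingosine-1-phosphate receptor S1pr1 (-1.53).

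A list drawn up around the ligands of these receptors had 15 genes tested, of which 2 rose and 2 fell in monocytes, against 5.11% and 2.44% of all genes. One of the pair that rose, Lcn2, is an iron-siderophore-binding granule protein that is a ligand of none of these receptors, so the list holds more than ligands. Lcn2 rose by 3.19 (adjusted p = 7.89e-05), and Anxa1, whose protein acts on formyl peptide receptors, by 0.95 (adjusted p = 4.22e-04). Ccl9 and Ccl6, mouse chemokines that act on Ccr1, fell by 0.87 (0.00285) and 0.78 (0.00350), while Ccr1 itself rose. Ccl2, the ligand of Ccr2, differed by -0.99 with adjusted p = 0.159. The Cxcr2 ligand Cxcl2 differed by 0.0022 between genotypes in monocytes (adjusted p = 0.999), and monocytes minus neutrophils were at -4.53 for it in controls. Control monocytes were higher than control neutrophils in Ccl9 (4.68) and Ccl2 (3.04).

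Of 24 G proteins and effectors, 3 rose in monocytes and none fell, against 5.11% and 2.44% of all genes: Plcb2, a phospholipase C that receptors of this kind activate in myeloid cells, by 0.92 (adjusted p = 0.00205), the G protein subunit Gng12 by 0.50 (0.0134) and the inhibitory subunit Gnai3 by 0.36 (0.0347). With 1 array left out 1 to 7 of the 24 were called, the most without labelled Zeb2-deficient replicate 2 and the fewest without replicate 3 or 4 of that group. The list's median was -0.085. Of 12 receptor kinases, arrestins and RGS proteins, which switch receptor signals off, 1 rose and 3 fell, against the same shares of all genes. Arrb2, an arrestin that uncouples and internalises receptors, rose by 0.79 (adjusted p = 7.04e-04), and Rgs1 fell by 1.30 (0.00482), the kinase Grk5 by 0.80 (0.0127) and Rgs2 by 0.41 (0.00767). With the replicate number as a block the calls of Gng12 (adjusted p = 0.0798), Gnai3 (0.0803), Grk5 (0.0636) and Rgs2 (0.0629) were lost. That of Gnai3 was also lost in 6 of 8 cases with 1 array left out (up to 0.112), and that of Gng12 without labelled Zeb2-deficient replicate 3 (0.0507) or 4 (0.0502).

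Control monocytes minus control neutrophils were at -1.46 for Plcb2, -1.16 for Gng12, -1.18 for Gnai3 and -2.29 for Arrb2. This comparison shares the control monocyte arrays with the genotype test, so nothing is read from the signs of both together. In it 10 of the 24 effectors were lower in monocytes and none was higher, and 8 of the 12 kinases, arrestins and RGS proteins were lower and 3 higher, led by Grk3 (2.55). Over all genes 28.7% were lower and 29.9% higher. In neutrophils limma called no gene of the 5 lists between genotypes, but 2 of the ligand list passed in array set B alone: Ppbp (3.50, adjusted p = 0.00914) and Pf4 (2.88, 0.0221), platelet chemokines that are also among the megakaryocyte and platelet markers. They were named after their values were seen. With all arrays, at an unadjusted p under 0.05 there were 3 of 8 chemokine receptors, 3 of 16 other receptors, 2 of 15 ligands, 2 of 24 effectors and 0 of 12 kinases, arrestins and RGS proteins, where 5.10% of all genes had such a p. The smallest adjusted p was that of Cxcr3 (0.76, adjusted p = 0.136).

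**Figure D4:**
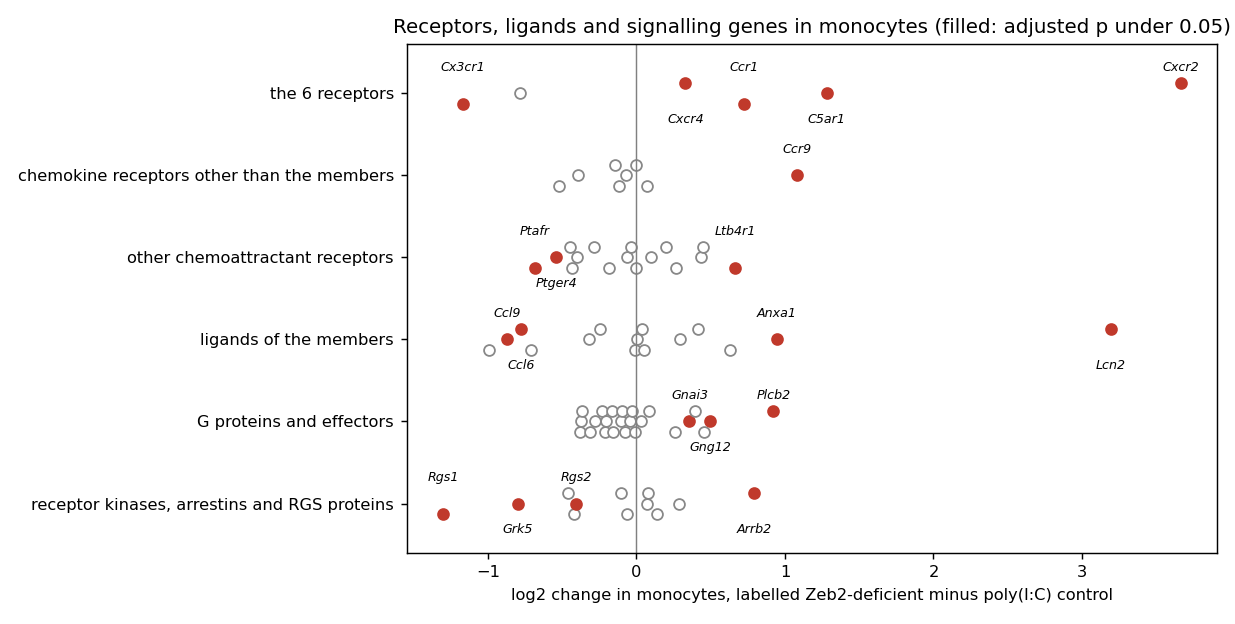
Change between genotypes in monocytes (labelled Zeb2-deficient minus control), in log2 units, for each tested gene of the 6 receptors and of 5 lists around them, 1 point per gene, spread vertically only to keep points apart. Filled and named points passed at adjusted p under 0.05; they run from -1.30 for Rgs1 to 3.66 for Cxcr2, and most genes of each list lie within 1 log2 unit of 0.

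By their pattern over the 18 arrays, the genes nearest to each receptor were looked up by Pearson's r, given with no test since the points fall into clusters of 2 cell types. Ccr2 was followed by the guanine nucleotide exchange factor Dock10 (r = 0.997), S100a4 and the cathepsin Ctss, and Cx3cr1 by the phospholipase Plcb1 (0.987), Frmd4a and Ms4a8a. Cxcr2 was followed by the decoy receptor Il1r2 (0.994), Actn1 and Acap1, and Cxcr4 by Mmp9 (0.991), Ifit1bl2 and Ankrd22. Ccr1 was followed by the inhibitory receptor Pilra (0.991), Asb7 and Scrg1, and C5ar1 by Cd300lf (0.994), Mmp25 and the calpain Capn1. Over the 9 monocyte arrays alone the nearest genes were Ceacam10 for Cxcr2 (0.992), Capn1 again for C5ar1 (0.964), P2ry13 for Ccr1 (0.946), Fam107b for Cxcr4 (0.990) and Dennd6a for Cx3cr1 (0.983). These 9 points fall into genotype groups that differ in the receptor itself.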

How the data were processed

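RNA of sorted mouse marrow monocytes and neutrophils was hybridised to 18 arrays, which the annotation's header names as Affymetrix Mouse Gene 1.0 ST. The authors deposited log2 intensities made with RMA, per the submitters' processing notes. Which program ran RMA, with which settings, is not given in the sources used here. Of 30177 probe sets, 21789 had 1 gene symbol, 1621 several and 6767 none, and 99.58% of the first kind matched a gene identifier of the reference table. Where a gene had more than 1 such probe set (999 genes), the brightest on average stood for it. Tested genes lay above the 40th percentile of an array on 4 or more of the 18. No value column was left unused, and no 2 arrays of a group held identical values.

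Groups came from the labels. limma 3.58.1 in R 4.3.3 was fitted to group means over all 18 arrays with a variance trend (12 residual degrees of freedom), and two-sided p-values were adjusted by Benjamini-Hochberg over all 13387 genes at 0.05. Adjusted p-values in the text come from this fit or, where an alternative is named, from a limma fit under that alternative. The within-array differences are the exception, with permutation p-values adjusted over the comparisons of that kind. In this fit each gene's spread was shared by all groups, so an SE or interval for one cell type also reflects scatter in the other. The single untreated arrays entered no test. Differences within an array were tested by exact permutation. On simulated data for the monocyte comparison the fit recovered 93% of 100 changes of 1 log2 unit and 100% of 100 changes of 2 log2 units among 13387 genes, and 10 of its 203 calls were of unchanged genes. The simulated noise was independent between arrays, whereas the real arrays deviated together by array set. It also had the same spread in every group, whereas real groups could differ. The SD of Cx3cr1 was 0.57 in labelled Zeb2-deficient and 0.05 in control monocytes. These rates therefore need not hold for the real data.

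The members, gene lists and marker lists were chosen with earlier results of these data known. Named are the members and Zeb2, up to 4 called genes with the largest change of each list, or up to 2 with the smallest p where none was called, and the 3 genes nearest to a member by Pearson's r. Genes named outside this rule, such as Cxcr1, Cxcr6, C5ar2, Ccl2 and Cxcl2 in the genotype comparison, and the markers named singly, were chosen after their values were seen.

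Same-numbered arrays of both genotypes deviated together from their group means within monocytes (r of 0.290 to 0.428 over 3 pairs) and within neutrophils (0.183 to 0.378 over 3 pairs). The labels do not state a pairing. These pairs always lie in the same array set, and arrays of the same set correlated at 0.127 to 0.428 in monocytes and 0.156 to 0.378 in neutrophils, those of different sets at -0.344 to -0.240 and at -0.299 to -0.0850. Same-numbered cell types correlated at 0.124 to 0.246 in labelled Zeb2-deficient samples and at 0.0591 to 0.259 in controls.

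Alternatives were other filters, quantile normalization, no variance trend, only the arrays compared, the replicate block, the array set as a block and alone, the mean of a gene's probe sets, and leaving out each array. Between genotypes and in the difference between cell types, the replicate block kept only numbers that both genotypes had. It left out labelled Zeb2-deficient replicate 3, control replicate 5 and the untreated arrays. Blocking and fewer arrays cannot be told apart there. Upstream sequences came from RefSeq (GRCm38.p6) by gene symbol, which matched all 6 members tested.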

Additional observations from a re-analysis of the deposited data

Results flagged for a closer look

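Among 28 sets of 4 arrays, that is 6 receptors and Zeb2 in each of the 4 groups, 2 held an array that stood apart by Dixon's criterion, which chance gives in about 1 of 20 sets. Ccr1 in labelled Zeb2-deficient monocyte replicate 1 read 6.53, with the nearest of the other arrays at 6.98. Zeb2 in poly(I:C) control monocyte replicate 1 read 10.08, with the nearest at 9.88.

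The change between genotypes differed between the cell types, by a tested difference of monocyte change minus neutrophil change, for 2 of 6 receptors and 6 genes of the lists around them. Of all genes 2.68% passed this test. The lists had 8 chemokine receptors, 16 other receptors, 15 genes around ligands, 24 effectors and 12 kinases, arrestins and RGS proteins tested. For Cxcr2 it was 3.69 (limma adjusted p = 1.80e-04) and for C5ar1 1.58 (0.0118). In the list drawn up around ligands it was 3.26 for Lcn2 (0.00389), which is no ligand of these receptors, and 1.09 for Anxa1 (0.00609). Among signalling genes it was 1.05 for the phospholipase Plcb2 (0.0207), 0.84 for the arrestin Arrb2 (0.0157), -1.15 for the receptor kinase Grk5 (0.0223) and -0.57 for Rgs2 (0.0162). With the replicate number as a block the last 4 did not pass, with adjusted p of 0.0518 for Plcb2, 0.0836 for Arrb2, 0.104 for Grk5 and 0.113 for Rgs2. With 1 of the 16 arrays left out Plcb2 was lost in 5 cases (adjusted p up to 0.0573) and Grk5 in 3 (up to 0.0582). In array set A alone Anxa1 and these 4 signalling genes did not pass, with adjusted p of 0.140 for Anxa1, 0.255 for Plcb2, 0.305 for Arrb2, 0.529 for Grk5 and 0.425 for Rgs2.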

How the results depend on the processing

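The calls of Cxcr2 and C5ar1 in monocytes, and of both in the difference between cell types, held under all alternatives tried, as did all 6 member calls between cell types in either genotype and the lack of any member call in neutrophils. No call of a member reversed. In monocytes 5 members were called, but 2 in array set A alone and 3 to 6 with 1 array left out, the lowest without labelled Zeb2-deficient replicate 3 or 4 or control replicate 4. The 1010 genes called there became 500 with only the arrays compared, 1516 with the array set as a block, 215 and 1724 within sets A and B, and 620 to 2001 with 1 array left out (2001, 621 and 620 without labelled Zeb2-deficient replicate 2, 3 and 4). The 16 genes called in neutrophils became 9 with only the arrays compared, 3 in set A and 8 to 17 with 1 array left out (8 without labelled Zeb2-deficient replicate 1, 9 without control replicate 4). The 359 genes of the difference between cell types became 224 with the replicate block, 567 with the set as a block, 72 and 731 within sets A and B, and 245 to 904 with 1 array left out (904 without labelled Zeb2-deficient monocyte replicate 2), and its 2 members became 4 in set B. Cxcr4 in monocytes was also lost with quantile normalization (adjusted p = 0.0525) and with only the arrays compared (0.0902), as was Ccr1 with only the arrays compared (0.0942), and Ccr2 was gained with a stricter filter (0.0455) and with only the arrays compared (0.0271). The difference between cell types for Cx3cr1 passed with the stricter filter (0.0441), and that for Ccr2 in set B (0.0323). Ccr2 minus Cxcr4 in monocytes changed by -1.31 to -0.93 with 1 array left out. The replicate block changed no call of a member or named gene between genotypes beyond those given. In set A alone 12 of the 15 list genes called in monocytes did not pass, all but Lcn2, Anxa1 and Plcb2. The cause of these shifts was not tested. Dim receptors, Ccr2 in neutrophils and Cxcr2 in control monocytes, lie near the array floor, which limits how low a level can be read.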
